A study of Homo sapiens with 12 samples.

Results

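Cytosolic ribosomal proteins and translation factors were followed in Hs695T, a human melanoma cell line, through drug treatment of 24 h. The genes were chosen by symbol: protein-coding genes named RPL or RPS with a number, and genes named EIF with a number or EEF, without the RPS6K kinases. The rule found 78 genes among the 14599 genes with a named row, and 3 further matches (EEF1DP3, EIF1B-AS1 and EIF3J-DT) were left out because they are not protein-coding. The 78 comprised 45 ribosomal proteins, 28 of the large and 17 of the small subunit, and 33 factors: 10 of cap binding, helicase activity and their inhibitors, 9 of start codon choice and the initiator tRNA complex, 4 EIF2 kinases, EIF6, and 9 of elongation and its modifiers. These groups were made by symbol, which places EIF5A, EIF5A2 and EIF5AL1 with the start codon factors and not with the elongation genes. Genes of the EIF3, EIF2B, EIF2S and EIF4G families had no named row and are not analysed here.

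The 12 arrays formed 4 groups of 3. Combination cells received all 3 drugs, MAPKi cells 100 nM dabrafenib, which inhibits BRAF, with 10 nM trametinib, which inhibits MEK, HDACi cells 1 µM entinostat, which inhibits class I histone deacetylases, and vehicle cells DMSO. All came from a single cell line grown in RPMI with serum. Within a group the arrays are biological replicates by their titles but technical ones by the design note, and p-values therefore measure only how far these arrays spread.

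Ribosomes are built from many proteins in equal copy number, and the mRNAs of those proteins begin with a run of pyrimidines, the 5′ terminal oligopyrimidine tract, through which the kinase mTOR controls their translation as a group. Recruitment of a ribosome to most mRNAs starts with EIF4E, which binds the cap, and is blocked when an EIF4E-binding protein such as EIF4EBP1 holds it. ERK and mTOR signalling both feed into this step in melanoma, the first through the MNK kinases that phosphorylate EIF4E, the second by phosphorylating EIF4EBP1.

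The annotated start of transcription was searched for a pyrimidine tract. Windows around annotated starts, credited to RefSeq on GRCh38.p14, were matched for 68 of the 78 genes. A run of at least 8 C or T overlapping the 5 bases on either side of the start on the gene's strand was found in 31 of 40 ribosomal protein genes (77.5%) and 4 of 28 factor genes (14.3%), against 13.7% of all 27305 genes with a window. The windows below run from 40 bases before the start to 20 bases after it, 5′ to 3′ on the gene's strand, with the tract in capitals. RPS6, RPS24, RPL29 and RPL28 are shown as ribosomal proteins described below, and EEF2 and EEF1A1 as elongation factors that also carry a tract. RPS6 lies at chr9:19380217-19380276 (minus strand), RPS24 at chr10:78033823-78033882 (plus), RPL29 at chr3:51995876-51995935 (minus), RPL28 at chr19:55385892-55385951 (plus), EEF2 at chr19:3985444-3985503 (minus) and EEF1A1 at chr6:73521013-73521072 (minus).
RPS6: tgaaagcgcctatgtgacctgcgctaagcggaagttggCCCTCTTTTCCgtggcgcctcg
RPS24: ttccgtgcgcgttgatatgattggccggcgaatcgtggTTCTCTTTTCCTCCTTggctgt
RPL29: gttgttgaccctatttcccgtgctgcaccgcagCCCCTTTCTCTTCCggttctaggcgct
RPL28: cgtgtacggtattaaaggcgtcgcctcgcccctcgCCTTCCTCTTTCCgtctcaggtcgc
EEF2: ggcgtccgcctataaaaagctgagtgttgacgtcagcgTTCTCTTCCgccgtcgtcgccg
EEF1A1: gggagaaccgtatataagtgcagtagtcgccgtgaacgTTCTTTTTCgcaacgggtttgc

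No such run overlapped the start of EIF4E (chr4:98929114-98929173, minus strand), EIF4A3 (chr17:80147109-80147168, minus), EIF5A2 (chr3:170908618-170908677, minus) or RPS27L (chr15:63157458-63157517, minus), which are shown because their values stand apart from most members below. Being picked by value, these windows cannot show a link between tract and change. EIF2D, which also stands apart below, does carry a tract, and EIF4EBP1, EEF1A2 and RPL39L had no matched window. RPS27L is a ribosomal protein by name, so its window can be set beside that of RPS6.
EIF4E: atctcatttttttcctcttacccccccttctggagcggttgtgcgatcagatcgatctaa
EIF4A3: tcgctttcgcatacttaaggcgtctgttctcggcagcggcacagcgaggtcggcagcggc
EIF5A2: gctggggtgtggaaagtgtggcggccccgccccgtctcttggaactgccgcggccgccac
RPS27L: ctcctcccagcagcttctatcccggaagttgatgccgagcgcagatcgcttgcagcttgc

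Over the full windows of 300 bases, read on both strands, the E-box CACGTG, which MYC can bind, was present in 3 of 40 ribosomal protein genes (7.5%), 9 of 28 factor genes (32.1%) and 8.77% of all genes. The ETS-type word CCGGAAG was present in 12 of 40 ribosomal protein genes (30.0%), 7 of 28 factor genes (25%) and 12.2% of all genes. These are matches of letters and not sites shown to be bound.

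Signal fell over most of the array in treated cells, and the members have to be read against that. The median log2 change over all genes against vehicle was -0.72 in combination, -0.48 in MAPKi and -0.20 in HDACi cells, and it was larger in brighter rows, with -1.19 in the brightest 10% of genes and -0.04 in the dimmest 10% for the combination. How the deposited values were scaled between arrays is not stated, and less RNA per cell, fewer cells and array scaling cannot be told apart here. Each change is therefore given on the deposited scale as log2 ± the standard error of limma over 3 arrays per group, and beside it after quantile normalization, which gives all arrays the same distribution and leaves all-gene medians of -0.03, 0.01 and -0.04. "Rose" and "fell" are used for genes that passed on the deposited scale at an adjusted p under 0.05 over all genes, and "relatively higher" or "relatively lower" for genes that passed after quantile normalization. As a check of drug action, all 8 genes of a list of MAPK output fell in MAPKi cells on both scales (median -4.61, quantile -3.85), led by the feedback inhibitor SPRY4 (-6.08 ± 0.12, quantile -5.45). The melanoma markers SOX10 (419 to 1081 intensity units over the 12 arrays) and S100B (853 to 2953) were bright, while the pigment genes MLANA (13.3 to 20.9), TYR (10.8 to 16.9) and TYRP1 (7.82 to 13.7) and the fibroblast genes DCN (5.91 to 7.38) and LUM (4.74 to 7.41) were dim. Arrays of a group correlated at 0.989 to 0.995 across genes.

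Nearly all members fell in both treatments that contain MAPKi, and fewer did in HDACi cells. In combination cells 76 of 78 fell and 1 rose, where 74.3% of all genes fell and 4.38% rose. In MAPKi cells 73 fell and 1 rose (66.2% and 2.97% of all genes), and in HDACi cells 51 fell and 1 rose (37.2% and 10.4%). The count of 51 ranged from 36 to 52 when 1 array was left out. The median change of the 78 was -1.08 in combination, -0.72 in MAPKi and -0.34 in HDACi cells, each below the all-gene median. The members are bright, with 67 above the median gene and 24 in the brightest 10%, and the bright rows changed most. After quantile normalization the median of the 78 was 0.03, -0.02 and -0.02 in the same order. The counts then became 17 relatively lower and 21 higher in combination cells (24.2% and 22.1% of all genes), 8 and 8 in MAPKi cells (13.9% and 15.1%), and 15 and 16 in HDACi cells (21.1% and 18.5%). The 8 relatively higher in MAPKi cells became 5 without MAPKi array 1 and 4 without MAPKi array 3, and the 16 in HDACi cells became 8 to 10 without vehicle array 1, 2 or 3 or HDACi array 1 or 3. On this scale the median of the set lay close to that of all genes, and 31 members, 22 of them ribosomal proteins, were called in none of the 3 treatments after quantile normalization.

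**Figure D1:**
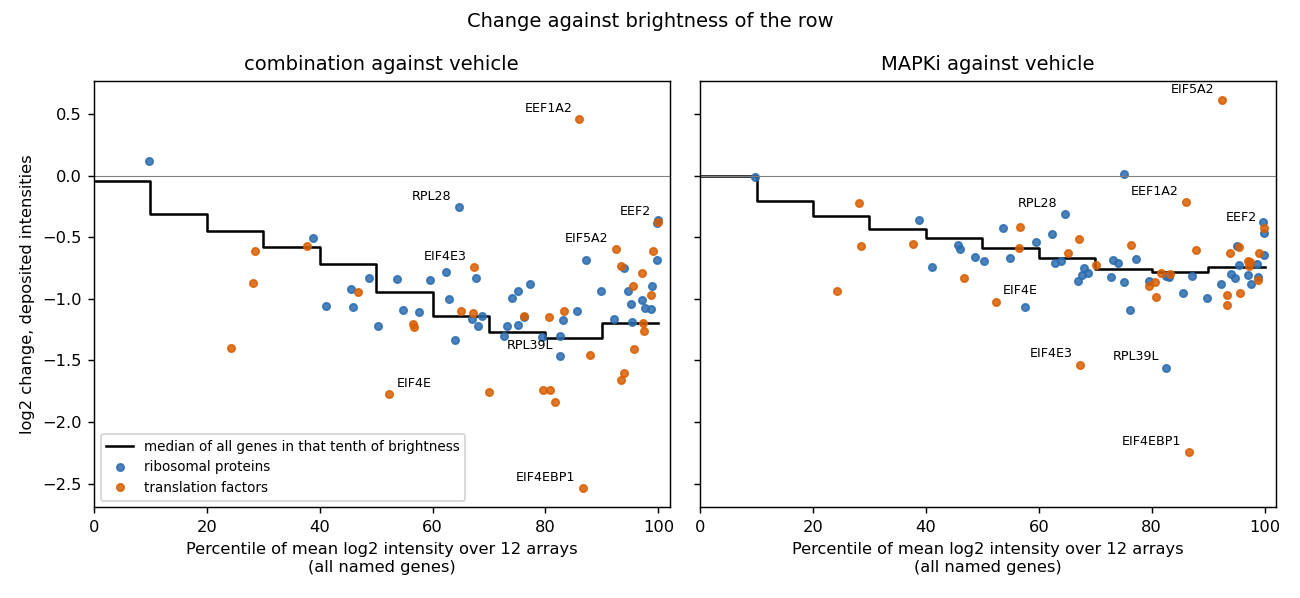
Log2 change of each of the 78 genes on the deposited scale (vertical axis) against the percentile of its mean log2 intensity among all named genes (horizontal axis), for combination against vehicle (left) and MAPKi against vehicle (right), with the black steps marking the median of all genes in each 10% of brightness. Most blue ribosomal proteins lie close to the steps, while EIF4EBP1 (-2.53 and -2.24) lies far below and EEF1A2 (0.46, combination) and EIF5A2 (0.61, MAPKi) far above them.

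After quantile normalization ribosomal protein genes moved as a narrower band than the factors, and the band was not compared with rows of like brightness. On the deposited scale 44 of 45 fell and 0 rose in combination cells (median -1.04), where 74.3% of all genes fell. In MAPKi cells 43 fell and 0 rose (median -0.73, 66.2% of all genes falling), and in HDACi cells 30 fell and 0 rose (median -0.32, 37.2%). After quantile normalization their medians were 0.07, -0.03 and 0.01, and the SD over the 45 genes was 0.249, 0.211 and 0.220, against 0.545, 0.442 and 0.424 over the 33 factors. In combination cells 5 large-subunit genes were relatively lower and 6 higher, while 0 of 17 small-subunit genes were relatively lower and 8 higher. In MAPKi cells the relatively lower and higher counts were 2 and 1 of the large subunit and 1 and 2 of the small subunit. In HDACi cells they were 5 and 2 of the large subunit and 0 and 5 of the small subunit. These shares are near or below those of all genes, apart from those of relatively higher small-subunit genes in combination and in HDACi cells. They were 47.1% in combination cells (22.1% of all genes) and 29.4% in HDACi cells (18.5%). Over all genes the relatively higher share grew with brightness. It went from 4.93% (dimmest 10%) to 35% (brightest 10%) in combination cells and from 3.29% to 30.6% in HDACi cells. Small-subunit genes were not compared with genes of like brightness, and the difference between subunits was not tested.

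RPS6, the small-subunit protein that S6 kinase phosphorylates below mTOR, lay near the middle of the band in combination cells. It read 178, 184 and 176 units on the combination arrays, 219, 207 and 170 on the MAPKi arrays, 313, 342 and 366 on the HDACi arrays, and 414, 356 and 382 on the vehicle arrays. Both treatments that contain MAPKi lay below all vehicle arrays, and the HDACi arrays overlapped them. RPS6 fell by 1.10 ± 0.11 in combination cells (adjusted p = 1.8e-07, quantile 0.21) and by 0.95 ± 0.11 in MAPKi cells (adjusted p = 2.3e-06, quantile -0.14), and it did not pass in HDACi cells (-0.17 ± 0.11, quantile 0.23). Its sign after quantile normalization was thus the opposite one in combination and in HDACi cells, where it passed as relatively higher (adjusted p = 0.031 and 0.023). The first of these calls was lost without any vehicle array or combination array 1 or 3 (up to 0.075), the second without any vehicle array or HDACi array 3 (up to 0.094).

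The ribosomal proteins with the largest falls under MAPKi were RPL39L, RPS24 and RPL29, all of which were also relatively lower. RPL39L, the testis-enriched copy of the large-subunit protein RPL39, read 159, 139 and 123 units on MAPKi arrays, against 437, 350 and 453 on vehicle arrays. It was 2.95-fold lower (-1.56 ± 0.13, adjusted p = 4.5e-08, quantile -0.75), without overlap between the groups. RPL39 itself read 91.3, 83.0 and 74.3 units on MAPKi arrays, against 121, 116 and 123 on vehicle arrays, a fall of 1.45-fold (-0.54 ± 0.10, adjusted p = 0.00026) that was 0.10 and did not pass after quantile normalization. The 2 copies thus differed in size of change, a difference that was not tested and that assumes rows specific to each copy.

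RPL29, a large-subunit protein, read 71.8, 63.8 and 62.8 units on MAPKi arrays and 140, 135 and 140 on vehicle arrays (-1.07 ± 0.10, adjusted p = 2.3e-07, quantile -0.40). RPS24, a small-subunit protein, read 116, 115 and 120 units on MAPKi arrays and 291, 219 and 245 on vehicle arrays (-1.09 ± 0.11, adjusted p = 3.8e-07). Its quantile change of -0.31 passed with an adjusted p of 0.018, which reached 0.077 when 1 array was left out, the call being lost without vehicle array 1, MAPKi array 1 or MAPKi array 2. Neither gene's arrays overlapped between the groups.

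RPL28 and RPS15A lay above the middle of the band, as did RPS27L, which is described with the interaction. RPL28, a large-subunit protein, read 94.0, 97.3 and 98.1 units on combination arrays, against 115, 109 and 121 on vehicle arrays. This was a small fall (-0.25 ± 0.09, adjusted p = 0.018, up to 0.078 when vehicle array 3 or combination array 1 was left out, and 0.056 when only the arrays compared were fitted), and it was relatively higher by 0.82 after quantile normalization (adjusted p = 3.5e-06). RPS15A, of the small subunit, read 362, 490 and 418 units on HDACi arrays, against 371, 357 and 332 on vehicle arrays. The groups overlapped, and the change of 0.25 ± 0.11 did not pass (adjusted p = 0.080), although it was 0.66 and passed after quantile normalization (adjusted p = 0.0001). RPL10L, a copy of RPL10 expressed in testis, was the dimmest ribosomal protein at 11.0 to 15.3 intensity units over the 12 arrays, and it was the only member besides EEF1A2 that did not fall in combination cells.

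**Figure D2:**
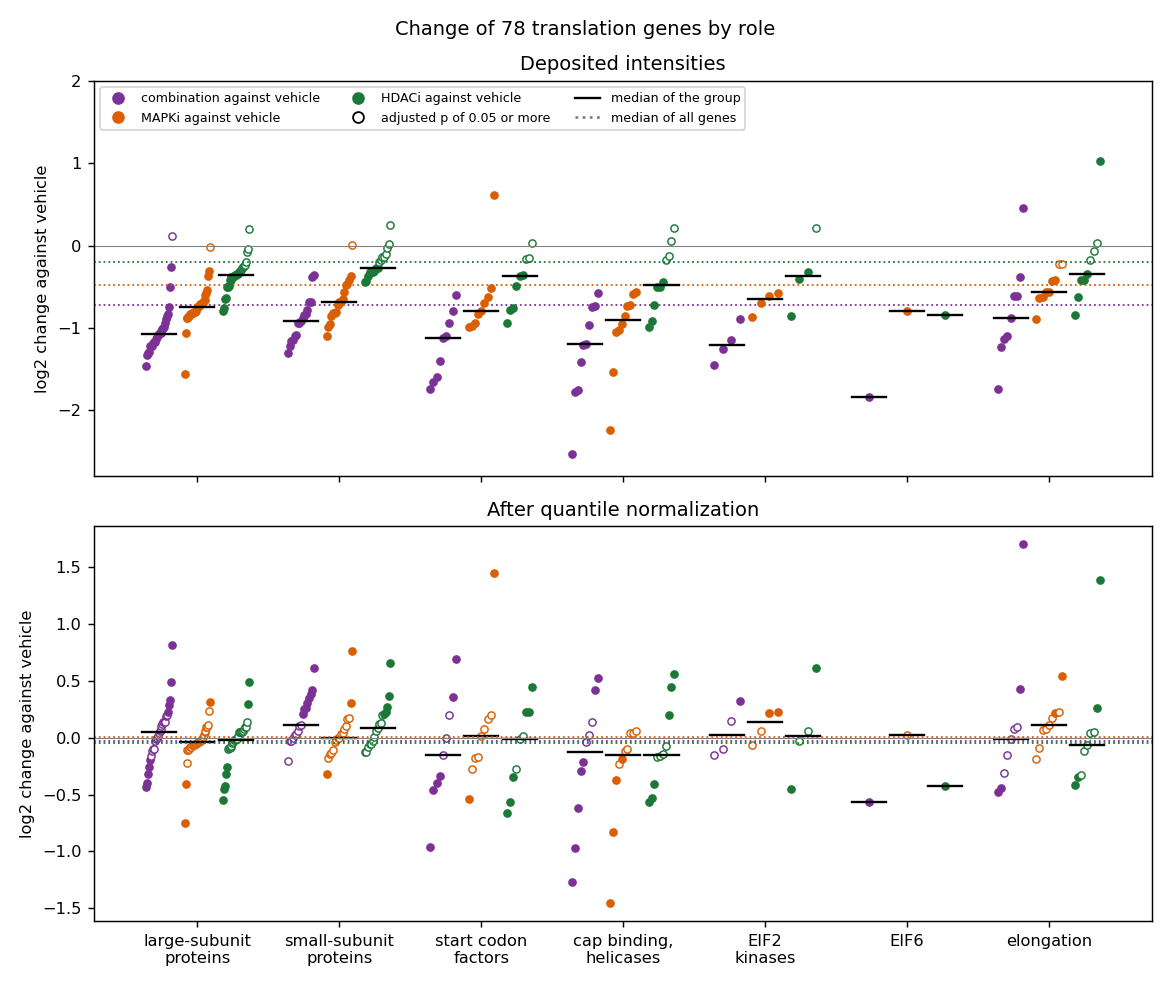
Log2 change of each gene against vehicle (vertical axis) by role (horizontal axis), on the deposited scale (top) and after quantile normalization (bottom), for combination (purple), MAPKi (orange) and HDACi (green); open circles did not pass, black bars are the group's median and dotted lines the all-gene median. On the lower panel the ribosomal protein medians lie between -0.04 and 0.11, and the farthest points are EIF4EBP1 at -1.46 in MAPKi cells and EEF1A2 at 1.70 in combination cells.

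On the deposited scale the largest fall of the 78 in each treatment was in the cap-binding group, EIF4EBP1 in combination and MAPKi cells and EIF4ENIF1 in HDACi cells. All 10 genes of the group fell in combination and in MAPKi cells (medians -1.20 and -0.90), and 6 fell in HDACi cells (median -0.48). Of all genes, 74.3% fell in combination, 66.2% in MAPKi and 37.2% in HDACi cells. After quantile normalization 5 were relatively lower and 2 higher in combination cells, 4 and 0 in MAPKi cells, and 3 and 3 in HDACi cells. The shares of all genes were 24.2% and 22.1%, 13.9% and 15.1%, and 21.1% and 18.5% in the same order.

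EIF4EBP1, the binding protein that holds EIF4E away from the cap complex, read 139, 122 and 122 units on the combination arrays, 176, 154 and 138 on the MAPKi arrays, 343, 404 and 427 on the HDACi arrays, and 777, 686 and 750 on the vehicle arrays. Every treated array lay below every vehicle array, and the HDACi arrays lay between vehicle and the rest. The gene was 5.79-fold lower in combination cells (-2.53 ± 0.12, adjusted p = 3.6e-11, quantile -1.27), 4.74-fold lower in MAPKi cells (-2.24 ± 0.12, adjusted p = 3.3e-10, quantile -1.46) and 1.89-fold lower in HDACi cells (-0.92 ± 0.12, adjusted p = 9.8e-06, quantile -0.53). Of all 78 members it had the largest fall in both treatments with MAPKi on the deposited scale. EIF4EBP2, the second binding protein of the family, fell by 0.97 ± 0.10 in combination and 0.85 ± 0.10 in MAPKi cells, close to the array (quantile 0.13 and -0.11, neither passing), and was at -0.13 ± 0.10 in HDACi cells.

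EIF4E, the cap-binding protein itself, read 35.5, 41.0 and 38.2 units on the combination arrays, 67.7, 65.7 and 59.9 on the MAPKi arrays, 81.0, 77.9 and 79.9 on the HDACi arrays, and 132, 122 and 139 on the vehicle arrays. The 4 groups did not overlap. It was 3.43-fold lower in combination cells (-1.78 ± 0.10, adjusted p = 1.9e-10, quantile -0.97), 2.03-fold lower in MAPKi cells (-1.02 ± 0.10, adjusted p = 3.0e-07, quantile -0.37) and 1.64-fold lower in HDACi cells (-0.72 ± 0.10, adjusted p = 2.1e-05, quantile -0.41). EIF4E, EIF4EBP1 and EIF5AL1, a retrocopy of EIF5A, were the 3 members relatively lower in all 3 treatments, and EIF5AL1 is named for that small count after its values were seen. EIF4ENIF1, which carries EIF4E into the nucleus, fell most of the 78 in HDACi cells. It read 137, 114 and 113 units on HDACi arrays, against 255, 215 and 249 on vehicle arrays (-0.99 ± 0.13, adjusted p = 1.1e-05, quantile -0.57), and it fell by 1.76 ± 0.13 in combination cells (quantile -0.62).

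EIF4E3, a second cap-binding protein of the EIF4E family, moved apart from EIF4E. It read 110, 96.1 and 99.1 units on the combination arrays, 59.4, 61.9 and 55.0 on the MAPKi arrays, 183, 213 and 197 on the HDACi arrays, and 198, 158 and 158 on the vehicle arrays. On the deposited scale MAPKi arrays were the lowest, and the combination arrays lay between them and the vehicle arrays. It was 2.90-fold lower in MAPKi cells (-1.53 ± 0.11, adjusted p = 1.6e-08, quantile -0.83), and 1.73-fold higher in combination than in MAPKi cells (0.79 ± 0.11, adjusted p = 2.8e-05, quantile 1.25). Against vehicle the combination gave a fall of 0.74 ± 0.11 (adjusted p = 1.8e-05), but a relatively higher level after quantile normalization (0.42, adjusted p = 0.0023). In HDACi cells against vehicle the change of 0.22 ± 0.11 did not pass (adjusted p = 0.14, quantile 0.56).

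EIF4A3, the helicase at the core of the exon junction complex, was likewise lowest on MAPKi arrays. It read 354, 371 and 372 units on the combination arrays, 334, 300 and 252 on the MAPKi arrays, 629, 662 and 610 on the HDACi arrays, and 603, 569 and 657 on the vehicle arrays. HDACi and vehicle arrays overlapped (0.06 ± 0.11, quantile 0.44), and the MAPKi arrays lay below both (-1.05 ± 0.11 against vehicle, adjusted p = 7.3e-07, quantile -0.23 and not passing). Combination arrays were 1.25-fold above MAPKi arrays (0.32 ± 0.11, adjusted p = 0.026, quantile 0.76). On the deposited scale that call was lost without MAPKi array 3, combination array 2 or combination array 3 (adjusted p up to 0.12), and when only the arrays compared were fitted (0.054). Against vehicle EIF4A3 fell by 0.73 ± 0.11 in combination cells, and it was relatively higher after quantile normalization (0.52).

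**Figure D3:**
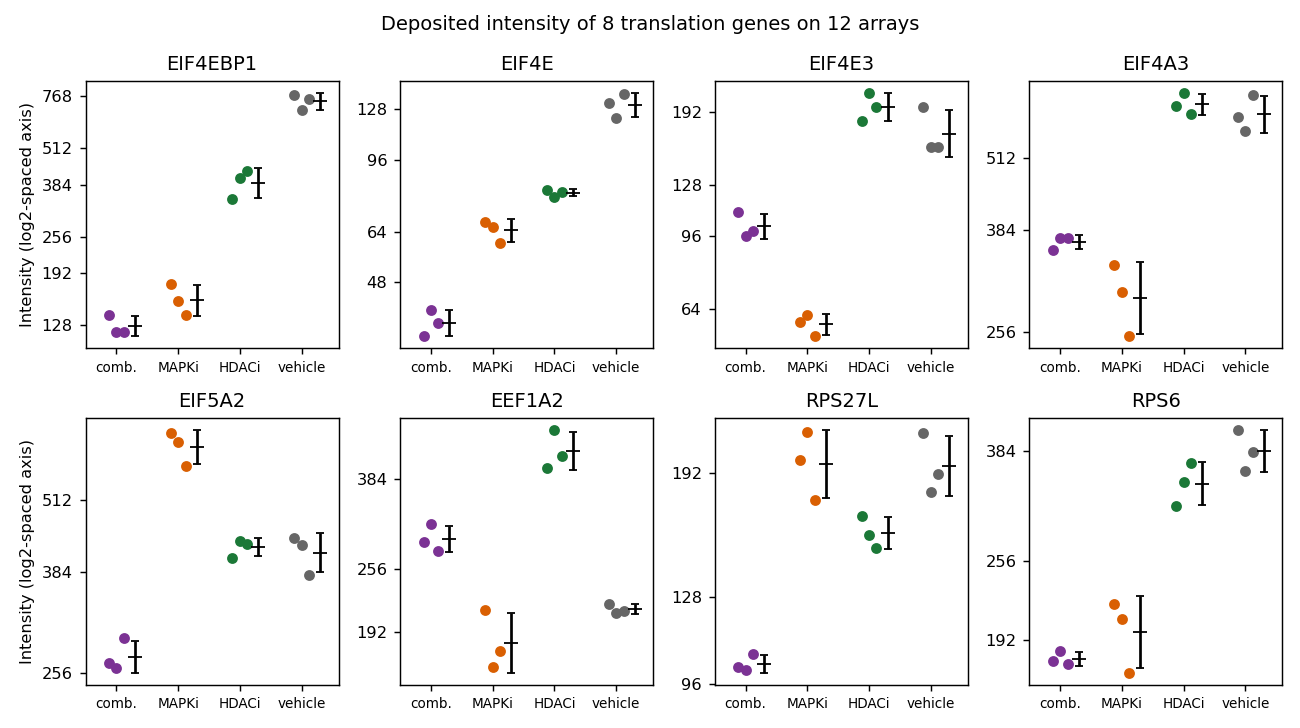
Deposited intensity of 8 genes on the 12 arrays (vertical axis, spaced on a log2 scale), with 3 arrays each for combination, MAPKi, HDACi and vehicle from left to right, and black bars for the mean ± SD of the log2 values. EIF4E is lowest on combination arrays, and EIF4EBP1 is low on combination and MAPKi arrays, which overlap. EIF4E3 and EIF4A3 are lowest on MAPKi arrays, EIF5A2 is highest on MAPKi arrays and EEF1A2 highest on HDACi arrays.

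The start codon group was made by symbol and so also holds EIF5A, EIF5A2 and EIF5AL1, a family whose role, given below, lies elsewhere. Of its genes, 9 of 9 fell in combination cells (median -1.12), 8 fell and 1 rose in MAPKi cells (median -0.80), and 6 fell in HDACi cells (median -0.37). Over all genes 74.3% fell in combination cells, 66.2% fell and 2.97% rose in MAPKi cells, and 37.2% fell in HDACi cells. The member of the group that rose was EIF5A2. EIF5A and EIF5A2 encode isoforms of the hypusine-bearing factor that helps the ribosome through difficult stretches such as prolines, EIF5A being the general form and EIF5A2 the form of restricted expression. EIF5A2 read 266, 261 and 294 units on the combination arrays, 668, 645 and 585 on the MAPKi arrays, 406, 434 and 430 on the HDACi arrays, and 439, 426 and 379 on the vehicle arrays. All MAPKi arrays lay above and all combination arrays below the other 6. It rose 1.53-fold in MAPKi cells (0.61 ± 0.10, adjusted p = 7.2e-05, quantile 1.45), it was level in HDACi cells (0.03 ± 0.10, quantile 0.44), and it was 2.31-fold lower in combination than in MAPKi cells (-1.21 ± 0.10, adjusted p = 1.5e-07, quantile -0.76). Against vehicle the combination gave a fall of 0.60 ± 0.10, which was 0.69 after quantile normalization and so of the opposite sign. EIF5A read 52.5, 48.5 and 47.9 units on MAPKi arrays and 86.5, 94.6 and 83.3 on vehicle arrays, a fall of 1.78-fold (-0.83 ± 0.13, adjusted p = 2.6e-05, quantile -0.27 and not passing). The EIF5A row was dimmer than that of EIF5A2 (mean log2 5.90 against 8.70), and whether it reports the main EIF5A transcript was not tested.

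EIF2D, which delivers initiator tRNA outside the usual EIF2 route and takes part in ribosome recycling, was among the largest falls in HDACi cells. It read 398, 417 and 484 units on HDACi arrays, against 839, 776 and 879 on vehicle arrays (-0.94 ± 0.11, adjusted p = 3.0e-06, quantile -0.57). EIF6, which keeps the large subunit from joining the small one too early, read 92.8, 118 and 120 units on combination arrays, against 382, 342 and 456 on vehicle arrays. That is a fall of 3.57-fold (-1.84 ± 0.15, adjusted p = 1.0e-08, quantile -0.57), the second largest of the 78 in combination cells. The fall of EIF6 in HDACi cells was 0.84 ± 0.15 (adjusted p = 0.00019, quantile -0.42), and its quantile call was lost without vehicle array 3 or HDACi array 1 (adjusted p up to 0.12).

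The 4 EIF2 kinases, which slow initiation under stress by phosphorylating EIF2, did not move alike. All 4 fell in combination (median -1.20) and MAPKi cells (median -0.65), and 3 fell in HDACi cells, where 74.3%, 66.2% and 37.2% of all genes fell. After quantile normalization no kinase passed as relatively lower in combination or MAPKi cells. EIF2AK2 was relatively higher in both, and EIF2AK4 in MAPKi cells, where 22.1% and 15.1% of all genes were relatively higher in combination and MAPKi cells. EIF2AK3, the kinase known as PERK that senses stress in the endoplasmic reticulum, read 125, 133 and 121 units on the combination arrays, 156, 163 and 141 on the MAPKi arrays, 311, 340 and 321 on the HDACi arrays, and 299, 261 and 277 on the vehicle arrays. The HDACi arrays lay above the vehicle arrays, although the change of 0.22 ± 0.10 did not pass (adjusted p = 0.090, quantile 0.61 with adjusted p = 5.7e-06). In MAPKi cells it fell by 0.87 ± 0.10 (quantile -0.06) and in combination cells by 1.15 ± 0.10 (quantile 0.14). EIF2AK4, the kinase GCN2 that senses uncharged tRNA, read 254, 278 and 281 units on HDACi arrays, against 536, 443 and 501 on vehicle arrays, and fell without overlap (-0.86 ± 0.11, adjusted p = 1.1e-05, quantile -0.45). EIF2AK3 and EIF2AK4 thus had opposite signs in HDACi cells after quantile normalization.

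Elongation genes, grouped by the name EEF, held the clearest rise under entinostat. Of 9, 8 fell and 1 rose in combination cells, 7 fell and 0 rose in MAPKi cells, and 5 fell and 1 rose in HDACi cells. The shares of all genes that fell and rose were 74.3% and 4.38%, 66.2% and 2.97%, and 37.2% and 10.4% in the same order. EEF1A1 and EEF1A2 encode the factor that brings aminoacyl-tRNA to the ribosome, the first in most cells and the second mainly in muscle and neurons. EEF1A2 read 288, 312 and 278 units on the combination arrays, 213, 164 and 176 on the MAPKi arrays, 404, 479 and 426 on the HDACi arrays, and 219, 209 and 211 on the vehicle arrays. HDACi and combination arrays lay above all vehicle arrays, while MAPKi arrays overlapped vehicle. The gene rose 2.04-fold in HDACi cells (1.03 ± 0.11, adjusted p = 1.9e-06, quantile 1.39) and 1.37-fold in combination cells (0.46 ± 0.11, adjusted p = 0.0016, quantile 1.70), and combination arrays were 1.60-fold above MAPKi arrays (0.68 ± 0.11, adjusted p = 0.00011, quantile 1.16). In MAPKi cells the change was -0.22 ± 0.11 (adjusted p = 0.099, and 0.022 without MAPKi array 1), and it was of the opposite sign after quantile normalization (0.54). EEF1A2, EIF5A2 and RPL28 were the 3 members relatively higher in all 3 treatments.

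EEF1A1 read 111, 109 and 105 units on combination arrays, against 248, 227 and 239 on vehicle arrays, and fell 2.20-fold without overlap (-1.14 ± 0.09, adjusted p = 1.2e-08). After quantile normalization that change was 0.09 and did not pass. In combination cells the EEF1A1 row thus followed the array while EEF1A2 rose. In MAPKi cells EEF1A1 fell but was relatively higher, and EEF1A2 was relatively higher there too. The EEF1A1 row was dimmer than that of EEF1A2 (mean log2 7.38 against 8.05 over the 12 arrays). Whether it reports the main transcript of that gene was not tested. EEF2, which moves the ribosome along the mRNA, was the second brightest member at 3950, 4069 and 4240 units on combination arrays, 3964, 4030 and 3868 on MAPKi arrays, 5222, 5640 and 5496 on HDACi arrays, and 5309, 5005 and 5660 on vehicle arrays. It fell by 0.38 ± 0.09 in combination and 0.43 ± 0.09 in MAPKi cells, less than the median of the brightest 10% of genes. After quantile normalization both changes were 0.08, of the opposite sign, and did not pass. Whether rows so near the top of the range understate changes was not tested. EEF2K, the kinase that switches EEF2 off, read 99.6, 113 and 105 units on combination arrays, against 359, 330 and 373 on vehicle arrays. It was 3.35-fold lower (-1.74 ± 0.10, adjusted p = 2.2e-10, quantile -0.48), and it fell by 0.84 ± 0.10 in HDACi cells (quantile -0.41).

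Adding entinostat to MAPKi lowered 47 members and raised 3 (40.6% and 8.68% of all genes), with a median of -0.31 (quantile 0.05, with 17 relatively lower and 19 higher against 23.5% and 19.9% of all genes). The 3 that rose, EIF4E3, EEF1A2 and EIF4A3, were also relatively higher. The largest falls after EIF5A2 were EIF6 (-1.04 ± 0.15, quantile -0.59), EIF4ENIF1 (-1.03 ± 0.13, quantile -0.67), EIF2D (-0.97 ± 0.11, quantile -0.51) and RPS27L. Adding MAPKi to entinostat lowered 77 members and raised 0 (72.6% and 0.644% of all genes), with a median of -0.71 (quantile 0.05). In that comparison EIF4EBP1 (-1.62 ± 0.12, quantile -0.74), EIF2AK3 (-1.36 ± 0.10, quantile -0.47) and EIF5B (-1.30 ± 0.10, quantile -0.42), the GTPase that joins the subunits, fell most. The relatively lower and higher counts were 5 and 9 (11.6% and 11.4% of all genes), the 9 becoming 5 without combination array 1.

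MAPKi cells set against HDACi cells had 50 members lower and 3 higher (39.4% and 7.25% of all genes), with a median of -0.38 (quantile 0.00, 13 relatively lower and 11 higher against 20.4% and 24.6%). EIF4E3 (-1.75 ± 0.11, quantile -1.39), EIF4EBP1 (-1.32 ± 0.12, quantile -0.92) and EEF1A2 (-1.25 ± 0.11, quantile -0.84) were lowest in MAPKi cells relative to HDACi cells. The 3 higher in MAPKi cells were EIF5A2 (0.58 ± 0.10, quantile 1.01), RPS27L (0.33 ± 0.11, quantile 0.70) and EIF2D (0.32 ± 0.11, quantile 0.73). For RPS27L and EIF2D the deposited calls were each lost without 1 of 4 arrays (MAPKi arrays 1 and 2, and HDACi arrays 2 and 3 for RPS27L or 1 and 2 for EIF2D), with adjusted p up to 0.11 and 0.099, and after quantile normalization they held whichever array was left out.

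The effect of entinostat differed with and without MAPKi for 6 members. This difference, the interaction, is the change of combination against MAPKi minus the change of HDACi against vehicle, and its all-gene median was -0.05. It passed below 0 for 3 members and above 0 for 3 (3.85% each), near the 4.84% and 3.16% of all genes, and the same 6 passed after quantile normalization together with RPL36 and RPL39L (6.26% and 6.21% of all genes). EIF5A2 had the largest value, -1.24 ± 0.14 (adjusted p = 5.8e-05, quantile -1.20), from a change of -1.21 on top of MAPKi and of 0.03 alone.

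RPS27L, a copy of RPS27 and a known p53 target, read 101, 100 and 106 units on the combination arrays, 201, 220 and 176 on the MAPKi arrays, 167, 157 and 150 on the HDACi arrays, and 219, 181 and 192 on the vehicle arrays. MAPKi and vehicle arrays overlapped (0.01 ± 0.11), a level held while the array as a whole fell (quantile 0.76, adjusted p = 2.2e-05). The combination arrays lay below all others, 1.93-fold under MAPKi (-0.95 ± 0.11, adjusted p = 3.2e-06, quantile -0.51), and the interaction was -0.63 ± 0.16 (adjusted p = 0.018, quantile -0.56). In HDACi cells RPS27L was lower by 0.32 ± 0.11 (quantile 0.06), a call lost without vehicle array 1, HDACi array 2 or HDACi array 3 (adjusted p up to 0.12). That interaction was lost on the deposited scale without MAPKi array 2 or HDACi array 1 (up to 0.057). EIF2AK3 had an interaction of -0.50 ± 0.14 (adjusted p = 0.041, quantile -0.41), which on the deposited scale was lost without any of 9 of the 12 arrays (up to 0.11).

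The other 3 were less lowered, or more raised, by entinostat on top of MAPKi. EIF4EBP1 changed by -0.29 ± 0.12 on top of MAPKi (adjusted p = 0.054) and by -0.92 alone, an interaction of 0.63 ± 0.17 (adjusted p = 0.029, quantile 0.72). RPL29 changed by -0.04 ± 0.10 on top of MAPKi and by -0.65 ± 0.10 alone, an interaction of 0.60 ± 0.14 (adjusted p = 0.015, quantile 0.62). EIF4E3 had an interaction of 0.57 ± 0.16 (adjusted p = 0.038, quantile 0.69). On the deposited scale RPL29 passed whichever array was left out, while EIF4EBP1 and EIF4E3 were lost without any of 6 and 8 arrays (up to 0.087 and 0.10). RPL39L, at 0.59 ± 0.18, missed the threshold on the deposited scale (adjusted p = 0.061) and passed after quantile normalization (0.67, adjusted p = 0.0068). The interaction of EEF1A2 was -0.36 ± 0.16 and did not pass on either scale, so its rise with entinostat was not shown to depend on MAPKi.

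**Figure D4:**
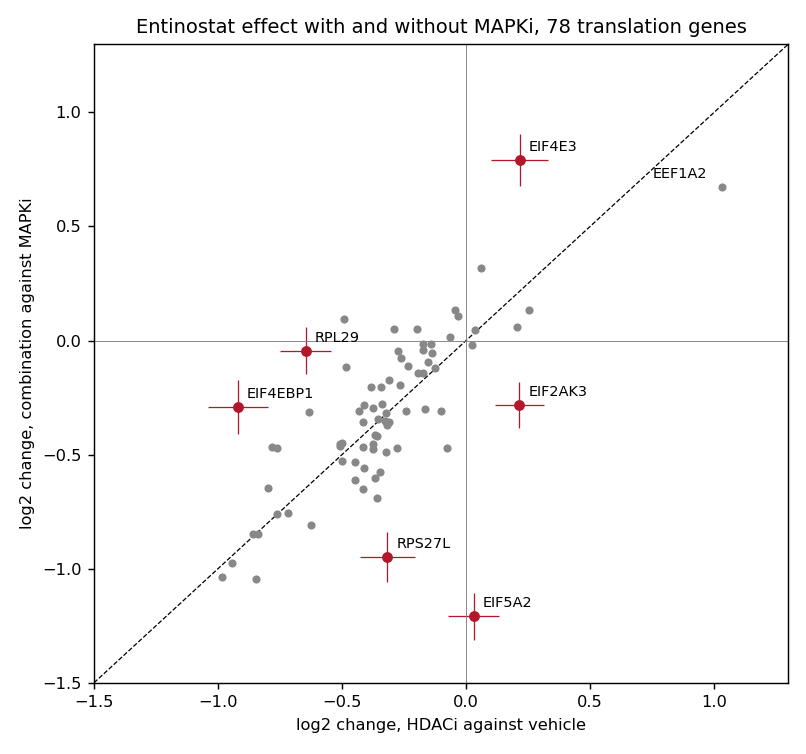
Log2 change of each gene when entinostat was added to MAPKi (vertical axis) against its change with entinostat alone (horizontal axis), both on the deposited scale, with the dashed line marking equal effects and red points with standard errors the 6 genes whose interaction passed. EIF5A2 (-1.21 against 0.03) and RPS27L (-0.95 against -0.32) lie below the line and EIF4E3 (0.79 against 0.22) above it.

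Members with a pyrimidine tract at their annotated start varied less among themselves than members without one there. After quantile normalization the 35 with a tract had a median of 0.08 (SD over genes 0.239) in combination and -0.02 (SD 0.157) in MAPKi cells, and the 33 without one a median of 0.00 (SD 0.407) and -0.02 (SD 0.367). Most of the first group are ribosomal proteins, and the 2 spreads were not tested against each other. A run lying farther than 5 bases from the annotated start was not counted, as in EIF4B, so the second group may include genes with a tract.

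Other genes of translation were read from lists. Of 23 listed cytosolic aminoacyl-tRNA synthetases and their scaffold proteins, which charge tRNAs, 19 had a row, and 19 fell in combination cells (median -1.46), 18 in MAPKi cells (median -0.82) and 15 in HDACi cells (median -0.57), with 0 rising, where 74.3%, 66.2% and 37.2% of all genes fell. After quantile normalization 12 were relatively lower and 4 higher in combination cells, 6 and 2 in MAPKi cells, and 9 and 3 in HDACi cells, with medians of -0.34, -0.07 and -0.18, and the shares of all genes were 24.2% and 22.1%, 13.9% and 15.1%, and 21.1% and 18.5%. The counts of the lists that follow stand against the same shares. WARS1, the tryptophan enzyme, fell by 1.60 ± 0.11 in HDACi cells (quantile -1.16), VARS1, the valine enzyme, by 1.38 ± 0.11 in MAPKi cells (quantile -0.61), and IARS1, the isoleucine enzyme, by 2.01 ± 0.10 in combination cells (quantile -0.81). The median of this list was farther below 0 than that of the 78 members on both scales in each treatment, a difference that was not tested.

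Of 17 genes of mTOR, S6 kinase and MNK signalling, 9 had a row, and 8 fell in combination, 7 in MAPKi and 6 in HDACi cells, where 1 rose. After quantile normalization 4 were relatively lower and 2 higher, 2 and 2, and 6 and 2 in the same order. PDCD4, an inhibitor of the helicase EIF4A, fell by 2.13 ± 0.12 in both combination and MAPKi cells (quantile -0.89 and -1.36), and TSC2, which restrains mTOR, fell by 1.38 ± 0.12 in HDACi cells (quantile -0.95). MTOR itself fell by 1.09 ± 0.10 in HDACi cells (quantile -0.68). Of 13 termination, recycling and poly(A)-binding factors 8 had a row, of which 7 fell and 1 rose in combination cells, 6 and 1 in MAPKi cells, and 4 and 1 in HDACi cells. After quantile normalization 4 were relatively lower and 1 higher, 1 and 1, and 2 and 2 in the same order. In HDACi cells the riser was PAIP2B, an inhibitor of poly(A)-binding protein, at 1.99 ± 0.16 (quantile 2.10), and GSPT1, the release factor eRF3, fell by 1.27 ± 0.10 in MAPKi cells (quantile -0.50).

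Of 15 targets of the integrated stress response, which phosphorylated EIF2 sets off, 10 had a row. In combination cells 8 fell and 0 rose (median -0.57), in MAPKi cells 7 and 0 (median -0.59), and in HDACi cells 3 and 2 (median -0.11). After quantile normalization 1 was relatively lower and 7 higher in combination cells (median 0.62), 1 and 3 in MAPKi cells (0.15), and 0 and 6 in HDACi cells (0.29), where 22.1%, 15.1% and 18.5% of all genes were relatively higher. TRIB3, a pseudokinase of that response, fell by 1.03 ± 0.11 in MAPKi cells (quantile -0.38, a call lost without vehicle array 2, vehicle array 3 or MAPKi array 1, adjusted p up to 0.089). It was the 1 target relatively lower in MAPKi cells and so does not stand for the list, in which more targets were relatively higher. Of 11 ribosomal proteins whose symbols fall outside the rule 5 had a row, and 5 fell in combination, 5 in MAPKi and 4 in HDACi cells, with 0 rising. After quantile normalization 3 were relatively lower and 0 higher, 0 and 0, and 2 and 1 in the same order.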

How the data were processed

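RNA was measured on 12 single-colour Affymetrix arrays. The deposited table holds linear intensity values, which the submitters' processing notes trace to RMA and Transcriptome Analysis Console; versions, array scaling and any use of the added ERCC spike-in RNA by the authors are not stated. Of 29592 rows, 14783 had 1 symbol, giving 14599 genes (RefSeq GRCh38.p14 for names), with the brightest row per gene (1 member, EEF1G, had 2). Here log2 was taken and limma 3.58.1 in R 4.3.3 was fitted to all genes and arrays with a mean per group (residual degrees of freedom 8, prior 7.68). Adjusted p-values throughout are limma's, with Benjamini-Hochberg adjustment over all genes, in 7 comparisons. The number of arrays limits precision. On simulated data for MAPKi against vehicle with 14599 genes, 36% of changes of 0.5 and 96% of changes of 1 were called. These percentages depend on how many genes change. Whether they hold for the measured arrays, where 66.2% of all genes fell and 2.97% rose in MAPKi cells, was not tested.

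The members and lists were chosen with earlier results of these data known. Genes eligible to be named were the 5 largest falls and rises per comparison among passing members without overlap, the 3 largest after quantile normalization and for the interaction, fixed regulators and paralogs, and up to 2 passing and 2 other genes per list. Not all of these are described, and from the lists only genes that passed are. EIF5AL1, RPL36, and the names left out by the rule were added after values were seen. Near-identical copies and pseudogenes may share signal. The alternatives are given at the end. Motifs were searched with Python 3.11.15, and figures were drawn with matplotlib 3.10.9.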

Additional observations from a re-analysis of the deposited data

Results flagged for a closer look

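For 6 of the 78 genes the effect of entinostat in cells that also received MAPKi differed from its effect in cells that did not, by limma's interaction term. The 3 lower and 3 higher (3.85% of members each) were near the shares of all genes, 4.84% and 3.16%. The values were -1.24 for EIF5A2, -0.63 for RPS27L, -0.50 for EIF2AK3, 0.57 for EIF4E3, 0.60 for RPL29 and 0.63 for EIF4EBP1. EIF5A2 and RPL29 passed whichever array was left out. The other 4 passed by a narrow margin on the deposited scale. RPS27L was lost without MAPKi array 2 or HDACi array 1 (adjusted p up to 0.057), and EIF4EBP1 without vehicle arrays 1 or 3, MAPKi arrays 2 or 3, HDACi array 1 or combination array 1 (up to 0.087). EIF4E3 was lost without vehicle array 1, any MAPKi array, HDACi arrays 1 or 3, or combination arrays 1 or 3 (up to 0.10), and EIF2AK3 without any of 9 arrays, all but vehicle array 1, MAPKi array 3 and combination array 2 (up to 0.11). After quantile normalization these 6 genes passed with each array left out in turn.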

How the results depend on the processing

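Scaling between arrays moved most counts. Members lower and higher after quantile normalization (then with each array's median subtracted) numbered 8 and 8 (31 and 6) in MAPKi, 15 and 16 (21 and 8) in HDACi and 17 and 21 (43 and 7) in combination cells. With the combination set against MAPKi they were 17 and 19 (25 and 14), against HDACi 5 and 9 (25 and 5), and with MAPKi against HDACi 13 and 11 (15 and 12). The median change was -0.017 (-0.17), -0.017 (-0.13) and 0.028 (-0.28) in the 3 treatments, then 0.052 (-0.061), 0.048 (-0.12) and 0.0016 (-0.034), so 4 medians changed sign. The interaction had 5 members higher after quantile normalization. In HDACi cells 3 members rose without the dimmest 40% of genes and 2 with trend and robust variance.

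Some named genes also changed sign. With MAPKi these were RPL39 (0.098 after quantile normalization, 0.011 with medians subtracted), EEF1A2 (0.54, 0.33) and EEF2 (0.081, 0.12), and with HDACi EIF4EBP2 (0.20, 0.080), RPS6 (0.23, 0.032) and RPS27L (0.058, quantile only). With the combination they were RPL28 (0.82, 0.55), EIF5A2 (0.69, 0.20), EIF4E3 (0.42, 0.058), EIF4A3 (0.52, 0.068) and EEF2 (0.081, 0.42), and after quantile normalization only EIF4EBP2 (0.13), EEF1A1 (0.094), RPS6 (0.21) and EIF2AK3 (0.14). Between combination and MAPKi they were RPL29 (0.30, 0.21) and, after quantile normalization only, EIF4EBP1 (0.19). The cause was not tested beyond the general shift in signal given above.

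Leaving out each array in turn, the members lower with HDACi ranged from 36 to 52. Those lower in combination than in MAPKi cells ranged from 35 to 47. The members higher with HDACi ranged from 1 to 2, and from 8 to 16 after quantile normalization (8 to 10 without vehicle array 1, 2 or 3 or HDACi array 1 or 3). They ranged from 4 to 8 with MAPKi after quantile normalization (4 or 5 without MAPKi array 3 or 1), from 1 to 2 with the combination (2 without array 3), and, set against HDACi, from 0 to 1 and after quantile normalization from 5 to 9 for the combination and from 1 to 5 for MAPKi on the deposited scale. The interaction had 1 to 4 lower (1 without MAPKi array 2 or HDACi array 1) and 1 to 4 higher (1 without vehicle array 1, MAPKi array 2 or 3, HDACi array 1 or combination array 1). RPS27L with MAPKi ranged from -0.067 to 0.095, EIF5A2 with HDACi from -0.033 to 0.073 and RPL29 between combination and MAPKi from -0.11 to 0.016.

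Arrays of the same number were not treated as paired, since deviations from group means correlated at a median of 0.032 (-0.11 to 0.12 over 18 pairs) and the best match of 7 of 12 arrays bore their own number. With the replicate block 73, 49 and 76 members were lower with MAPKi, HDACi and the combination, and 2 lower and 3 higher in the interaction, EIF2AK3 losing its call (adjusted p = 0.057). With only the arrays compared RPL28 in combination cells and EIF4A3 between combination and MAPKi no longer passed (adjusted p = 0.056 and 0.054), and the interaction was not run. The blocks and omitted arrays on quantile-normalized values were added after seeing the data.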
